A study of Rattus norvegicus with 30 samples.

Results

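This account follows 49 listed genes of the cell cycle and of DNA replication in rat liver after different dietary proteins. On the array, 44 of the 49 genes had a probe set named for that gene alone, among 14217 genes so named in the whole series. Each gene was read from its brightest probe set, by the mean log2 intensity over all arrays. It was tested where that mean lay above the 40th percentile of all probe sets, a log2 level of 7.39. That left 34 tested genes. Another 10 lay below the filter: *Ccne2*, *Bub1*, *Bub1b*, *Ttk*, *Melk*, *Cenpf*, *Kif11*, *Mki67*, *Gins1* and *Brca1*. *Kif4a*, *Tpx2*, *Cdc6*, *Gins2* and *Rrm2* were not analysed here. The dimmest tested genes were *Mad2l1* and *Tyms*, with means of 7.53 and 7.63, and the brightest untested ones were *Bub1b* and *Kif11*, with means of 7.34 and 7.29.

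Livers came from 30 male Sprague-Dawley rats, 5 on each of 6 diets, with 1 single-colour Affymetrix array per animal. The rats were received at 4 weeks of age, ate a non-purified diet for 5 days while they adapted, and then ate their experimental diet for 14 days. Every experimental diet held 200 g/kg of protein. In the casein diet (C) all of it was casein, and CI was C with an added isoflavone mixture. In the soy protein diet (S) soy protein took the place of casein, and SI was S with the same kind of isoflavone addition. In T20 all protein came from freeze-dried tofu, and in T10 tofu and casein supplied 100 g/kg each. CI and SI carried as much isoflavone as the tofu brought to T20, which separates isoflavone from the protein source. Whole liver was profiled, so fewer dividing cells and less RNA per dividing cell cannot be told apart in any result.

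A dividing cell first licenses its replication origins by loading the MCM helicase, then copies its DNA with the help of the PCNA clamp and a supply of nucleotides, and then enters mitosis under cyclin B and CDK1. Genes of the first steps are switched on largely by E2F factors at the entry to S phase. Genes of mitosis peak later, and their promoters are known for CCAAT boxes, which bind NF-Y, and for the CHR element, through which the DREAM complex represses them in resting cells and MYB-MuvB with FOXM1 activates them in cycling cells. Most hepatocytes of an adult liver rest outside the cycle, but the liver of a young rat still grows and its hepatocytes still divide or become polyploid.

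Promoter sequences were taken from RefSeq (GRCr8), as 250 bases before to 50 bases after the annotated start of each gene. They were searched on both strands for CCAAT, for the CHR letters TTTGAA and TTCGAA, and for the E2F letters TTTCCCGC, TTTGGCGC, TTTGCCGC and TTTCGCGC. The 4 printed here are those of 3 mitotic genes and 1 replication gene that were lower in T20 than in C. They show how the letters of the division genes and of an MCM gene are laid out. Capitals mark the matches, and one on the other strand reads as its reverse complement, such as ATTGG for CCAAT. The sequence runs 5′ to 3′ along the strand of the gene.
Ccnb2, chr8:79981609-79981908, minus strand: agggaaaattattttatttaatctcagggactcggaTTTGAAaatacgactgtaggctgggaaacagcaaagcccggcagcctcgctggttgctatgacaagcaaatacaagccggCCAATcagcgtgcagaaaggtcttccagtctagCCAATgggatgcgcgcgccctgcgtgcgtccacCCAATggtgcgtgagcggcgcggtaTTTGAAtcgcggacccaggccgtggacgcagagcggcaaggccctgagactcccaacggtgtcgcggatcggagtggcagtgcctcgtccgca
Cdkn3, chr15:22502136-22502435, plus strand: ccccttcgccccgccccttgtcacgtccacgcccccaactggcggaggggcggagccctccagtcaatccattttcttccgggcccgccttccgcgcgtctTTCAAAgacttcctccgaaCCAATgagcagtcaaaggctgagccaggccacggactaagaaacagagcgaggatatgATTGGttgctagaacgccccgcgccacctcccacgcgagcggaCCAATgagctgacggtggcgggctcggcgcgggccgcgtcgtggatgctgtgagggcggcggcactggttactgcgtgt
Cdca3, chr4:159320953-159321252, plus strand: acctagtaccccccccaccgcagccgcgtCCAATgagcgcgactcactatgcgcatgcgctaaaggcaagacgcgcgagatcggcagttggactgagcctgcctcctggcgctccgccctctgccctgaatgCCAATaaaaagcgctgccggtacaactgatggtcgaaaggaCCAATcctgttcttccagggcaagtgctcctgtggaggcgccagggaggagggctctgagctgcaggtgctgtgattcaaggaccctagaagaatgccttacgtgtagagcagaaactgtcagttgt
Mcm7, chr12:22163129-22163428, minus strand: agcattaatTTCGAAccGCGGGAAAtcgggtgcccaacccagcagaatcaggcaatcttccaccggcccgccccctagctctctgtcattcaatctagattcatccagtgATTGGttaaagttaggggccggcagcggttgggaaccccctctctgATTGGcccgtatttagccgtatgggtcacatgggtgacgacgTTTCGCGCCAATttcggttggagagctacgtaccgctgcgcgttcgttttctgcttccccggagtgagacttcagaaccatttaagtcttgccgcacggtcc
In *Ccnb2* the letters CCAAT began at positions -134, -101 and -68 from the start site, and TTTGAA began at -214 and at -43. *Cdkn3* had 3 CCAAT matches and 1 CHR match, and *Cdca3* had 3 CCAAT matches and no match to the CHR letters. *Mcm7* had 2 E2F matches, 3 CCAAT matches and 1 CHR match, and its E2F match nearest the start shares its last base with a CCAAT match. A match describes letters and not a bound site, and where there is none, that says only that these letters are not in this window.

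**Figure D1:**
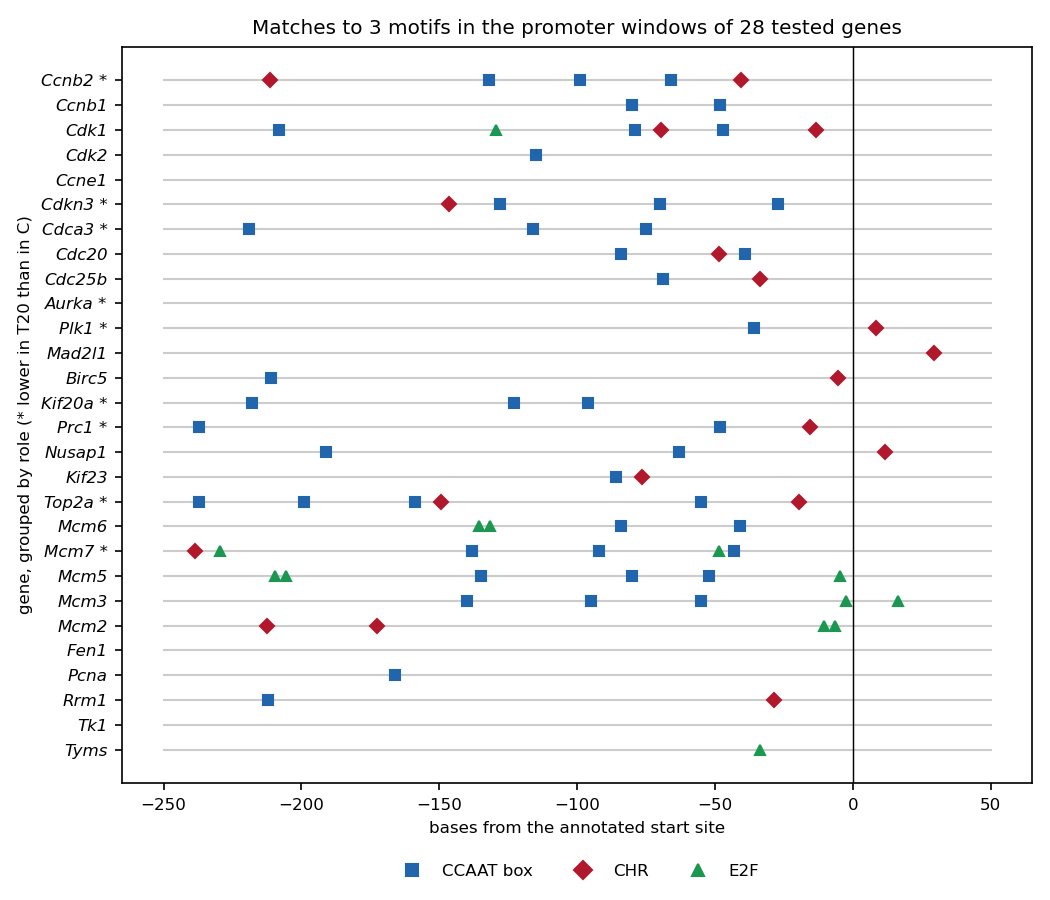
Positions of CCAAT (squares), CHR (diamonds) and E2F (triangles) matches, in bases from the annotated start site, for the 28 tested genes with a promoter in the table, grouped by role. An asterisk marks a gene that was lower in T20 than in C. CHR matches lie mostly in the upper rows, the division genes, while CCAAT matches lie in rows of division and of replication genes. E2F matches lie in the rows of 5 MCM genes, *Tyms* and *Cdk1*.

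The promoter table held 39 of the 49 listed genes and 28 of the 34 tested ones. CCAAT stood in 75% of these 28 promoters and in 37.7% of all 27457 promoters of the table. CHR letters stood in 53.6% of the 28 and in 19.5% of all, and E2F letters in 25% and 2.25%. CCAAT and CHR together stood in 46.4% of the 28 and in 7.83% of all. The tested genes also differed by role. Among 18 genes of cell cycle control and division, 15 held CCAAT, 12 held CHR letters and 1 held E2F letters (*Cdk1*). Among 10 genes of replication and nucleotide supply, 6 held CCAAT, 3 held CHR letters and 6 held E2F letters. Those with E2F letters were *Mcm2*, *Mcm3*, *Mcm5*, *Mcm6*, *Mcm7* and *Tyms*. Of the 9 genes lower in T20 than in C that had a promoter in the table, 8 held CCAAT, 6 held CHR letters and 1 held E2F letters. These shares, 88.9%, 66.7% and 11.1%, were near the 83.3%, 66.7% and 5.56% of all 18 division genes, called or not. In the 19 tested genes not called they were 68.4%, 47.4% and 31.6%. These shares are descriptions, and the genes were listed with results of these data known.

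The samples carried the liver's own signature. All 8 hepatocyte markers, among them *Alb* and *Ttr*, lay above the filter, at or above the 96.4th percentile of mean intensity. Array medians ran from 217.4 to 255.5 in intensity. A control ratio of RNA integrity, the 3′ over 5′ signal of *Gapdh*, stood apart in 3 T10 livers, replicates 3, 4 and 5, at 1.58, 1.51 and 1.32, against 0.970 to 1.25 in the other livers. The same ratio of beta-actin did not set these livers apart, at 2.43, 2.37 and 2.35, beside 2.21 to 2.65 in C. The labels give identical normalization parameters for C replicate 3 and CI replicate 3. Their log2 values correlated at 0.952, within the range of 0.939 to 0.971 between livers of different diets, and both were kept.

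Across the 6 diets, 8 of the 34 tested genes differed by the moderated F test of limma, against 12.9% of all tested probe sets. They were *Ccnb2* (adjusted p = 0.00238), *Kif20a* (0.00247), *Tk1* (0.0137), *Cdkn3* (0.0188), *Ccna2* (0.0236), *Cdca3* (0.0240), *Tyms* (0.0308) and *Mcm7* (0.0438). At an unadjusted p under 0.05 there were 18 of 34, against 28.8% of all probe sets. The order of the diets was not the same for division and replication genes. C had the highest mean of the 6 diets for 19 of the 34 genes, against 21.1% of all probe sets, and apart from *Rrm1* these 19 were genes of cell cycle control and division. S had the highest mean for 9 genes, against 11.1% of all probe sets, and these were *Mad2l1*, the 6 MCM genes, *Fen1* and *Tyms*. T20 had the lowest mean for 23 genes, against 15.4% of all probe sets. T10 and T20 were the 2 lowest diets for 21 genes, against 7.86% of all probe sets. These orders are descriptions, since genes that share a cell cycle phase are not independent.

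The spread between livers of 1 diet was wide, and it was shared by many of the genes. For each liver the deviations of the 23 genes of cell cycle control and division from their means over all 30 livers were averaged. These averages were 0.38, 0.52, 0.19, 0.54 and 0.02 in C livers 1 to 5 and -0.06, -0.39, 0.19, -0.37 and -0.88 in T20 livers 1 to 5. In T10 they were 0.03, 0.09, -0.29, -0.56 and -0.18. In the diets with no tofu but with isoflavone or soy protein they were 0.36, 0.02, -0.08, 0.08 and -0.42 in CI, 0.13, 0.34, -0.28, 0.15 and 0.12 in S and 0.16, 0.23, 0.18, -0.08 and -0.13 in SI. All C livers thus lay above their 30-liver mean, and 4 of 5 T20 livers lay below it. T20 replicate 3 was the exception, and it overlapped with C. The same averages over the 11 genes of replication and nucleotide supply were 0.18, 0.11, -0.15, 0.26 and -0.25 in C and -0.02, -0.17, -0.07, -0.29 and -0.30 in T20, and there C and T20 overlapped in more of their range. Within a diet, C replicate 5 and CI replicate 5 each had the lowest value of their diet for 25 of the 34 genes, T20 replicate 5 for 23 and S replicate 3 for 22.

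**Figure D2:**
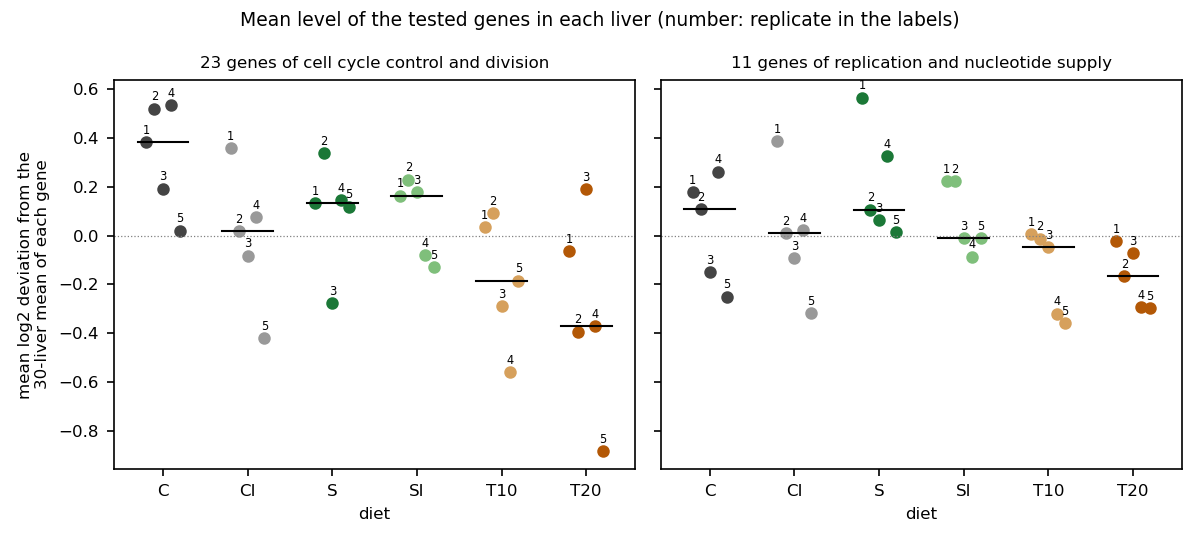
Mean log2 deviation of each liver from the 30-liver mean, averaged over 23 genes of cell cycle control and division (left) and 11 genes of replication and nucleotide supply (right), by diet. Points are livers with their replicate number and bars are diet medians. The left panel runs from 0.54 in C replicate 4 to -0.88 in T20 replicate 5, and the right panel spans less.

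The comparison of T20 with C asks what tofu as the whole protein source does relative to casein. With tofu 10 of the 23 genes of cell cycle control and division and 1 of the 11 genes of replication and nucleotide supply were lower, by 1.30-fold to 2.20-fold. The difference between these groups of genes was not tested. Of the 34 tested genes 11 were lower in T20 and 0 were higher at an adjusted p under 0.05, with limma and Benjamini-Hochberg adjustment over all 18625 tested probe sets. Of all probe sets 2.74% were called lower, and 4.5% were called in either direction. At an unadjusted p under 0.05, 20 of 34 were lower and 0 higher, against 11.9% of all probe sets lower. The median difference of the 34 genes was -0.40 on the log2 scale, against -0.01 for all probe sets. Each of 5 genes (*Ccna2*, *Ccnb2*, *Cdkn3*, *Foxm1* and *Kif20a*) had all 5 T20 livers below all 5 C livers, against 3.02% of all probe sets. By role, 2 of 6 cyclins and their kinases, 2 of 4 regulators of the kinases and of the anaphase switch, 1 of 2 transcription factors, 2 of 5 mitotic kinases and checkpoint genes, 2 of 5 spindle and cytokinesis genes and *Top2a* were lower. Their medians were -0.92, -0.87, -0.27, -0.56 and -0.99 in that order, without *Top2a*. Of 8 genes of licensing and the replication fork 1 was lower, with a median of -0.18, and of 3 genes of nucleotide supply 0, with a median of -0.25. Differences below are in log2 units of intensity ± SE, with 5 livers per diet and 1 spread per gene estimated over all 6 diets. All comparisons with C share the same 5 C livers.

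Of the 6 cyclins and cyclin-dependent kinases tested, *Ccnb2* and *Ccna2* passed. *Ccnb2* (cyclin B2, a partner of CDK1 at the entry to mitosis) measured 10.01, 10.14, 10.05, 10.44 and 10.03 in C livers 1 to 5, 9.26, 9.60, 8.96, 8.81 and 9.47 in T10 and 9.36, 9.06, 9.55, 8.98 and 8.60 in T20. In the other diets it measured 9.78, 9.34, 9.47, 9.85 and 9.39 in CI, 9.28, 9.92, 9.16, 9.54 and 9.73 in S and 9.27, 9.77, 9.73, 9.41 and 9.05 in SI. Every C liver lay above every liver of the other 5 diets. T20 was -1.02 ± 0.18 from C, 2.03-fold lower (adjusted p = 0.00139). *Ccna2* (cyclin A2, which acts in S phase and in G2) measured 9.03, 9.26, 9.33, 9.57 and 9.06 in C, 8.41, 8.94, 7.67, 7.34 and 8.13 in T10 and 8.86, 8.31, 8.48, 8.32 and 7.49 in T20. It measured 9.44, 9.14, 8.94, 9.25 and 8.25 in CI, 8.76, 9.21, 7.89, 8.69 and 9.07 in S and 8.67, 9.09, 8.53, 8.26 and 8.49 in SI. All T10 and T20 livers lay below all C livers, and CI overlapped with C. T20 was -0.96 ± 0.27 from C (adjusted p = 0.0402). With a liver left out the adjusted p ran from 0.0371 to 0.0912. The call was lost without any of the C livers or of T20 livers 2, 4 and 5, and after quantile normalization.

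*Ccnb1* (cyclin B1) and *Cdk1* (the kinase that drives mitosis) were more variable. *Ccnb1* measured 9.75, 10.13, 9.58, 10.21 and 9.39 in C, 9.33, 9.56, 9.01, 8.21 and 8.67 in T10 and 9.47, 8.83, 9.80, 8.91 and 7.05 in T20. It measured 9.85, 9.42, 9.22, 9.34 and 8.84 in CI, 9.78, 9.84, 9.07, 9.75 and 9.84 in S and 9.71, 10.07, 9.87, 9.57 and 9.08 in SI. T20 replicate 5 was the lowest of the 30 livers, while T20 replicates 1 and 3 lay within the C range. The difference of -0.9996 ± 0.33 did not pass (adjusted p = 0.0807). *Cdk1* measured 10.11, 10.43, 9.69, 10.51 and 9.46 in C, 9.80, 9.87, 9.09, 8.33 and 9.09 in T10 and 9.78, 9.37, 9.89, 8.81 and 7.99 in T20. It measured 10.07, 9.75, 9.54, 9.49 and 8.79 in CI, 9.78, 10.19, 8.97, 9.53 and 9.58 in S and 9.83, 9.86, 9.84, 9.43 and 9.09 in SI. T20 replicates 1 and 3 lay within the C range, and the difference of -0.87 ± 0.32 did not pass (adjusted p = 0.110). *Ccne1* and *Cdk2*, the cyclin and kinase of the G1/S step, were at 0.18 ± 0.14 and 0.06 ± 0.12, and neither passed (adjusted p = 0.510 and 0.830).

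Of the 4 tested regulators of the kinases and of the anaphase switch 2 passed. *Cdkn3* (a phosphatase that acts on cyclin-dependent kinases) measured 10.14, 10.13, 10.14, 10.30 and 10.21 in C, 9.20, 9.60, 8.77, 8.95 and 9.64 in T10 and 9.75, 8.92, 9.75, 8.93 and 8.55 in T20. It measured 9.74, 9.42, 9.58, 10.46 and 9.51 in CI, 9.43, 10.46, 9.25, 9.81 and 10.12 in S and 9.33, 9.72, 9.80, 9.66 and 9.32 in SI. The C livers lay close together, and all T10, T20 and SI livers lay below them, while CI replicate 4 and S replicate 2 lay above. T20 was -1.004 ± 0.23 from C (adjusted p = 0.0130). *Cdca3* (a trigger of mitotic entry) measured 9.79, 10.37, 9.77, 10.23 and 9.55 in C, 9.65, 9.46, 8.95, 8.91 and 9.18 in T10 and 9.19, 9.08, 9.75, 8.81 and 8.41 in T20. It measured 9.82, 9.45, 9.30, 9.67 and 8.85 in CI, 9.66, 10.21, 9.23, 9.58 and 9.74 in S and 9.88, 9.61, 9.90, 9.59 and 9.60 in SI. Of the T20 livers only replicate 3 reached the C range. T20 was -0.89 ± 0.21 from C (adjusted p = 0.0147). *Cdc20*, the activator of the anaphase-promoting complex, was at -0.85 ± 0.28 and did not pass (adjusted p = 0.0723). *Cdc25b*, a phosphatase that activates cyclin-dependent kinases, was at -0.40 ± 0.22 (adjusted p = 0.318).

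*Foxm1*, the transcription factor of late cell cycle genes, was dimmer and less variable than most of the list. It measured 8.13, 8.21, 7.999, 8.23 and 7.92 in C, 7.90, 8.03, 7.70, 7.71 and 7.82 in T10 and 7.71, 7.67, 7.90, 7.72 and 7.60 in T20. The values were 7.89, 7.87, 7.48, 7.85 and 7.67 in CI, 7.92, 7.93, 7.70, 8.10 and 7.77 in S and 7.98, 8.03, 7.72, 7.98 and 7.82 in SI. All CI and all T20 livers lay below all C livers. T20 was -0.38 ± 0.10 from C, 1.30-fold lower (adjusted p = 0.0290). With a liver left out the adjusted p ran from 0.0221 to 0.0692, and the call was lost without any of C livers 1, 2 and 4 and T20 livers 1, 2 and 5. *E2f1*, a factor of the entry to S phase, was at -0.15 ± 0.19 (adjusted p = 0.690).

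**Figure D3:**
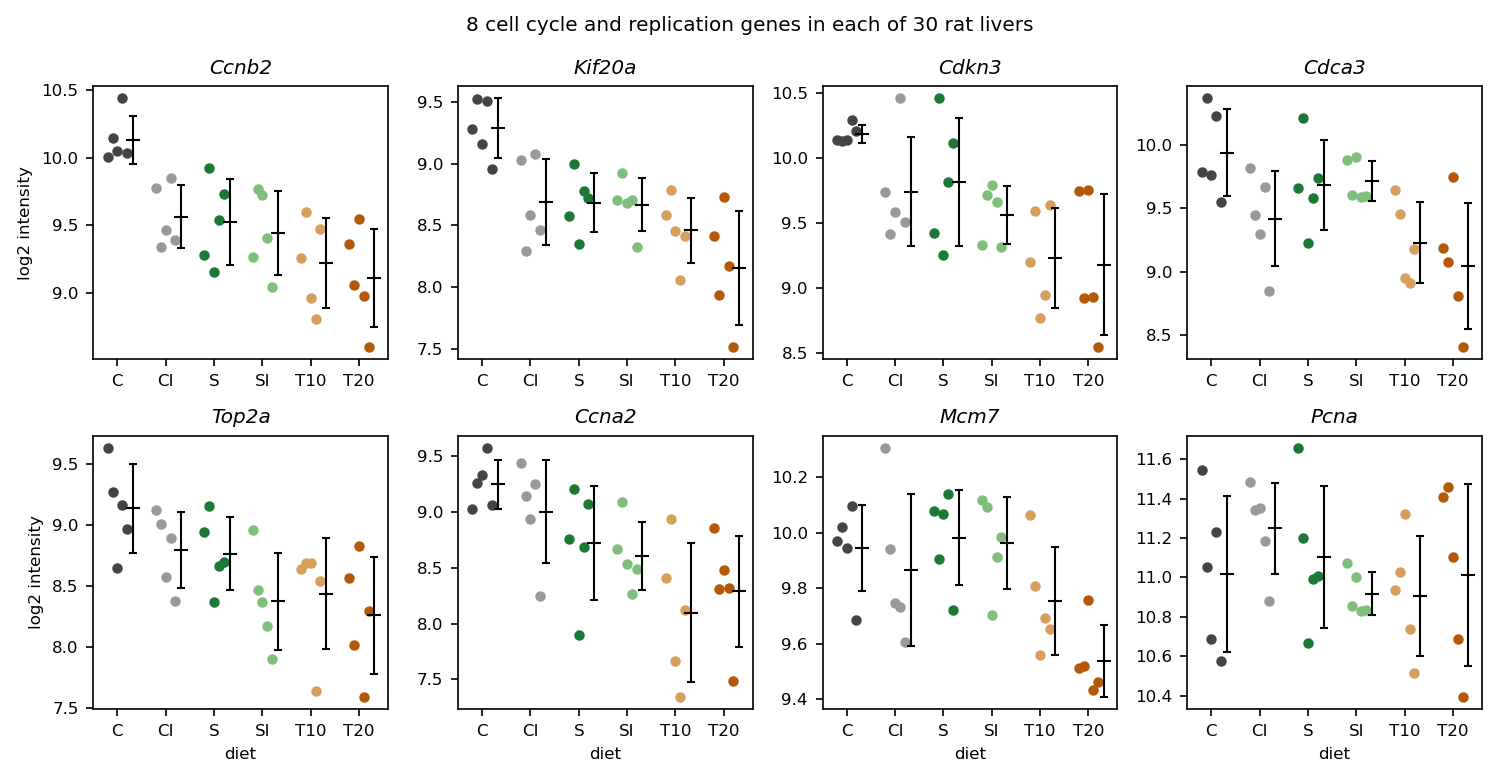
Log2 intensity of 8 genes in each of the 30 livers, by diet. Points are livers in the order of their replicate numbers, and the bar beside them is the mean ± SD of 5 livers. Every C liver lies above every other liver for *Ccnb2*, all T20 livers lie below all C livers for *Kif20a*, *Cdkn3* and *Ccna2*, and *Pcna* overlaps in all diets.

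Among the mitotic kinases and the spindle checkpoint, 2 of 5 tested genes passed. *Plk1* (polo-like kinase, needed for mitotic entry and spindle assembly) measured 9.23, 9.53, 9.01, 9.49 and 9.05 in C, 9.19, 9.13, 8.76, 8.46 and 8.78 in T10 and 8.72, 8.43, 9.15, 8.62 and 8.58 in T20. It measured 9.34, 8.91, 8.82, 8.81 and 8.59 in CI, 8.91, 9.28, 8.90, 9.16 and 9.05 in S and 9.27, 9.29, 9.15, 8.91 and 8.97 in SI. T20 replicate 3 lay within the C range and the other T20 livers lay below it. T20 was -0.56 ± 0.15 from C (adjusted p = 0.0290). With a liver left out it ran from 0.00906 to 0.0904, and the call was lost without any of C livers 2 and 4 and T20 livers 1, 2 and 4. *Aurka*, the kinase of the spindle poles, was at -0.91 ± 0.25 (adjusted p = 0.0348). Its call was lost without any of C replicates 1 to 4 and T20 replicates 2, 4 and 5 (adjusted p 0.0115 to 0.0890). *Aurkb* and *Birc5*, which form the chromosomal passenger complex with others, were at -0.63 ± 0.23 and -0.35 ± 0.16 and did not pass (adjusted p = 0.117 and 0.218). *Mad2l1*, the checkpoint protein that holds back the anaphase switch, was at -0.36 ± 0.19 (adjusted p = 0.300).

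Of the 5 tested genes of the central spindle and of cytokinesis 2 passed, and *Kif20a* had the largest difference of the 34 tested genes. *Kif20a* (a kinesin needed for cytokinesis) measured 9.29, 9.53, 9.16, 9.51 and 8.96 in C, 8.58, 8.78, 8.46, 8.06 and 8.41 in T10 and 8.41, 7.94, 8.73, 8.17 and 7.52 in T20. It measured 9.03, 8.30, 8.59, 9.08 and 8.47 in CI, 8.58, 8.999, 8.35, 8.78 and 8.73 in S and 8.71, 8.93, 8.68, 8.71 and 8.32 in SI. All T10, T20 and SI livers lay below all C livers, and CI and S overlapped with C at C replicate 5. T20 was -1.14 ± 0.19 from C, 2.20-fold lower (adjusted p = 0.000920). *Racgap1*, a part of centralspindlin, measured 8.85, 9.15, 8.51, 8.95 and 8.08 in C, 8.49, 8.34, 7.95, 6.95 and 7.69 in T10 and 8.06, 7.64, 8.53, 7.66 and 6.26 in T20. It measured 8.76, 8.44, 8.02, 8.17 and 7.40 in CI, 8.63, 8.93, 7.99, 8.51 and 8.55 in S and 8.85, 8.76, 8.51, 7.92 and 8.29 in SI. Of the T20 livers replicate 3 lay within the C range, and replicate 5 was the lowest of the 30 livers. The difference of -1.08 ± 0.32 did not pass (adjusted p = 0.0511). *Prc1*, which bundles the microtubules of the central spindle, was at -0.99 ± 0.28 (adjusted p = 0.0402). Its call was lost without any of C replicates 1 to 4 and T20 replicates 2, 4 and 5 (adjusted p 0.0136 to 0.0890). *Nusap1*, a spindle protein, was at -0.64 ± 0.26 (adjusted p = 0.156). *Kif23*, the kinesin partner of *Racgap1*, was at 0.22 ± 0.16 (adjusted p = 0.474).

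*Top2a* (topoisomerase IIα, which untangles sister chromatids) measured 9.63, 9.27, 8.65, 9.16 and 8.96 in C, 8.63, 8.68, 8.69, 7.64 and 8.54 in T10 and 8.56, 8.02, 8.83, 7.59 and 8.30 in T20. It measured 9.12, 9.003, 8.57, 8.89 and 8.37 in CI, 8.94, 9.15, 8.37, 8.66 and 8.69 in S and 8.96, 8.47, 8.37, 8.17 and 7.90 in SI. T20 replicate 3 lay within the C range and the other T20 livers lay below it. T20 was -0.87 ± 0.23 from C (adjusted p = 0.0290). With a liver left out the adjusted p ran from 0.0150 to 0.0847, and the call was lost without any of C livers 1 and 2 and T20 livers 2 and 4.

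Of the 8 tested genes of licensing and the replication fork 1 passed. *Mcm7* (a subunit of the MCM helicase) measured 9.97, 10.02, 9.94, 10.10 and 9.69 in C, 10.06, 9.81, 9.56, 9.69 and 9.65 in T10 and 9.51, 9.52, 9.76, 9.43 and 9.46 in T20. It measured 10.30, 9.94, 9.75, 9.73 and 9.60 in CI, 10.08, 9.90, 10.07, 10.14 and 9.72 in S and 10.12, 10.09, 9.70, 9.91 and 9.99 in SI. Only T20 replicate 3 of the T20 livers reached the C range, at C replicate 5. T20 was -0.41 ± 0.12 from C, 1.32-fold lower (adjusted p = 0.0428). That call was lost without any of C replicates 1 to 4 and T20 replicates 1, 2, 4 and 5 (adjusted p 0.0308 to 0.0912). It was also lost with quantile normalization, with arrays centred on the median and with equal median and spread, so under those scalings 0 of the 6 MCM genes passed. The differences of the other MCM subunits ran from -0.57 ± 0.21 for *Mcm6* (adjusted p = 0.113) to -0.11 ± 0.16 for *Mcm2* (adjusted p = 0.748), with *Mcm4* at -0.29, *Mcm5* at -0.19 and *Mcm3* at -0.17.

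*Mcm2* measured 8.80, 8.85, 8.74, 8.90 and 8.46 in C, 8.91, 8.75, 8.74, 8.62 and 8.50 in T10 and 8.66, 8.45, 8.76, 8.55 and 8.80 in T20. It measured 9.21, 8.81, 8.47, 8.41 and 8.11 in CI, 9.49, 8.91, 8.86, 9.11 and 8.61 in S and 8.87, 9.06, 8.71, 8.56 and 8.83 in SI. The 6 diets overlapped, and S replicate 1 was the highest liver. *Pcna* (the sliding clamp of DNA polymerase) measured 11.54, 11.05, 10.69, 11.23 and 10.58 in C, 10.94, 11.03, 11.32, 10.74 and 10.52 in T10 and 11.41, 11.46, 11.11, 10.69 and 10.40 in T20. It measured 11.48, 11.34, 11.35, 11.18 and 10.88 in CI, 11.65, 11.20, 10.67, 10.99 and 11.01 in S and 11.07, 10.85, 11.002, 10.83 and 10.84 in SI. The diets overlapped throughout, and T20 spanned most of the range of all livers. The difference of *Pcna* was -0.01 ± 0.20, with a 95% confidence interval of -0.41 to 0.40. *Fen1*, the flap endonuclease of the lagging strand, was at -0.05 ± 0.20, with an interval of -0.45 to 0.35.

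Among the genes of nucleotide supply 0 of 3 passed in T20 against C, and the unadjusted p of *Tk1* was under 0.05 (0.0434). *Tk1* (thymidine kinase, the salvage route to thymidylate) measured 10.10, 10.34, 9.77, 10.33 and 10.05 in C, 10.09, 10.15, 9.74, 9.70 and 9.89 in T10 and 9.90, 9.81, 10.11, 9.83 and 9.68 in T20. It measured 10.17, 9.70, 9.93, 10.10 and 9.60 in CI, 10.22, 10.46, 10.07, 10.37 and 10.24 in S and 10.28, 10.50, 10.29, 10.32 and 10.20 in SI. S and SI had the highest means of the 6 diets, and every SI liver lay above every CI and T20 liver. *Tyms* (thymidylate synthase, the route of new synthesis) measured 8.02, 7.54, 7.07, 7.66 and 7.44 in C, 7.12, 7.53, 7.63, 7.47 and 7.02 in T10 and 7.73, 7.60, 7.67, 7.40 and 7.86 in T20. It measured 7.43, 7.40, 7.84, 7.45 and 6.95 in CI, 8.15, 7.93, 7.89, 8.05 and 7.87 in S and 8.08, 8.06, 7.59, 7.94 and 7.64 in SI. Every S liver lay above every CI, T10 and T20 liver, though T20 replicate 5 came close. S was not tested against those 3 diets. T20 was -0.25 ± 0.12 from C for *Tk1* (adjusted p = 0.227) and 0.11 ± 0.16 for *Tyms* (adjusted p = 0.748). *Rrm1*, the large subunit of ribonucleotide reductase, was at -0.27 ± 0.19 (adjusted p = 0.433).

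**Figure D4:**
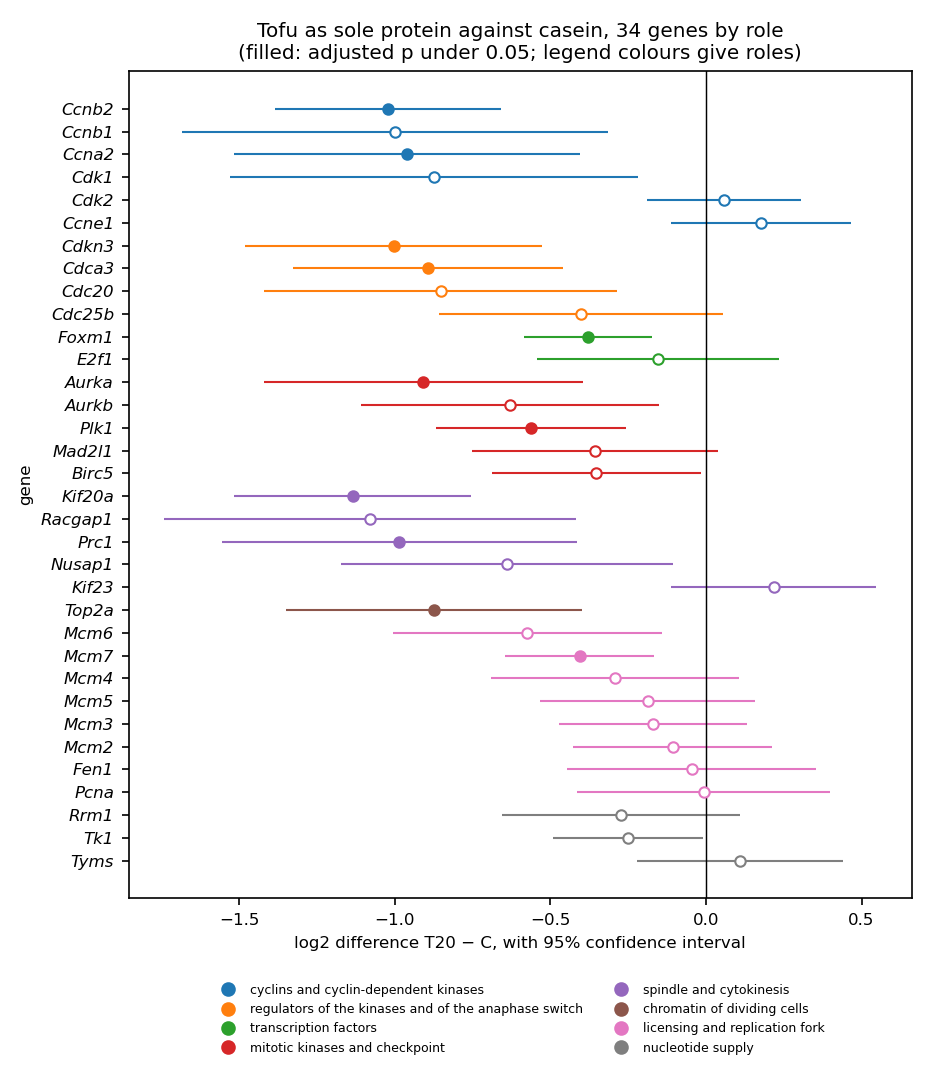
Log2 difference of T20 from C with its 95% confidence interval for the 34 tested genes, grouped by role and coloured by it. Filled points have an adjusted p under 0.05 by limma. The 11 filled points all lie below 0, from -1.14 for *Kif20a* to -0.38 for *Foxm1*, and only *Mcm7* of them belongs to licensing and the replication fork.

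The calls in T20 against C differed in how much they rested on single livers. *Ccnb2*, *Cdca3*, *Cdkn3* and *Kif20a* kept their calls whichever of the 10 livers was left out. Of these, *Cdca3* lost its call when C and T20 were fitted alone (adjusted p = 0.0846), and *Cdkn3* without replicates 5 of all diets (adjusted p = 0.0727). *Ccnb2* and *Kif20a* kept theirs in every alternative run. The count of called genes ran from 4 without C replicate 2 or without T20 replicate 2 to 15 without T20 replicate 3. Without T20 replicate 5, the lowest liver, and T10 replicate 4, 6 genes were called. Fitted on the C and T20 livers alone, 3 genes were called.

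Several genes had more than 1 tested probe set. The second probe set of *Ccnb1* was at -1.07 ± 0.35 in T20 against C, beside -0.9996 for the brightest, that of *Top2a* at -1.05 ± 0.32, beside -0.87, and that of *Cdc20* at -0.82 ± 0.24, beside -0.85. Those of *Nusap1* and *Tk1* were at -0.59 ± 0.25 and -0.37 ± 0.15. Some probe sets of 1 gene differed in sign. The second tested probe set of *Cdk2* was at -0.0070 ± 0.13, beside 0.06, and of 3 *Cdc20* probe sets below the filter 2 were at 0.46 ± 0.30 and 0.20 ± 0.20. For *Kif23* the dimmer probe set, below the filter at a mean of 7.04, was at -0.93 ± 0.27, while the brightest was at 0.22, so the direction of *Kif23* is not settled by these probe sets.

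Of the 10 genes below the filter, 3 passed in T20 against C in a fit without the filter. *Mki67* (the antigen of cycling cells used to count them in tissue) measured 8.03, 8.26, 6.93, 7.95 and 6.81 in C and 5.89, 6.02, 5.94, 6.39 and 5.15 in T20, and no T20 liver reached the C range. Its difference was -1.72 (adjusted p = 0.0108). *Bub1*, a kinase of the spindle checkpoint, was at -1.02 (adjusted p = 0.0354), and *Melk*, a kinase of dividing cells, at -0.91 (adjusted p = 0.0276). The other 7 were between -0.44 (*Gins1*) and 0.75 (*Ttk*), and none of them passed. In that fit 9 of all 44 genes on the array were called, all lower, and the share of all probe sets called in it was not counted. Beside *Mki67*, *Bub1* and *Melk*, they were *Ccnb2*, *Cdca3*, *Cdkn3*, *Kif20a*, *Plk1* and *Top2a*. The calls of *Aurka*, *Ccna2*, *Foxm1*, *Mcm7* and *Prc1* were lost in it (adjusted p = 0.0516, 0.0592, 0.0528, 0.0638 and 0.0592). Lower means were not limited to T20. *Bub1* also passed in S against C, at -0.91 (adjusted p = 0.0463). *Mki67* was at -1.22 in T10, -1.10 in S, -0.88 in CI and -0.77 in SI. None of these passed (adjusted p = 0.283, 0.0956, 0.512 and 0.276). The levels of these genes are near the dim end of the array, so the size of their differences is less certain than for brighter genes.

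T10 asks whether tofu in place of part of the casein goes with the same pattern. In T10 against C 2 genes were lower, *Ccnb2* and *Kif20a*, and 0 were higher, against 0.193% of all probe sets called lower and 0.322% in either direction. At an unadjusted p under 0.05, 17 of 34 were lower, against 6.33% of all probe sets, and the median was -0.34, against -0.03 for all probe sets. T10 was -0.91 ± 0.18 from C for *Ccnb2* (adjusted p = 0.0136) and -0.83 ± 0.19 for *Kif20a* (adjusted p = 0.0406). *Ccna2* was at -1.15 ± 0.27 (adjusted p = 0.0596) and *Cdkn3* at -0.95 ± 0.23 (adjusted p = 0.0778), and neither passed, although all 5 T10 livers lay below all C livers. Such separation held for 4 of 34 genes and for 1.15% of all probe sets. The call of *Ccnb2* was lost without T10 replicate 4 (adjusted p = 0.0708). That of *Kif20a* was lost without any of C replicates 1 to 4 and T10 replicates 1, 3, 4 and 5 (adjusted p 0.0373 to 0.178 over the livers left out). It was also lost under each of the 3 other scalings (adjusted p 0.0571 to 0.0844) and with no filter (0.0644).

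The 3 T10 livers with a raised *Gapdh* ratio were also the 3 lowest T10 livers for the averaged division genes. Without them 0 of 34 genes passed in T10 against C, with a median of -0.17. *Ccnb2* was then at -0.71 (adjusted p = 0.417) and *Kif20a* at -0.61 (adjusted p = 0.567), with 2 T10 livers left. The beta-actin ratio of these livers was not raised, and the part of RNA integrity in the T10 result was otherwise not tested. In T20 the ratio was 1.04 to 1.23, beside 1.01 to 1.19 in C. The difference between T20 and T10 passed for 0 of 34 genes, and 0 had an unadjusted p under 0.05, against 0% and 7.08% of all probe sets. The genes of smallest p were *Mcm7* (-0.22 ± 0.12, adjusted p = 0.739), *Tyms* (0.30 ± 0.16, adjusted p = 0.739) and *Kif20a* (-0.31 ± 0.19, adjusted p = 0.767). The 95% confidence intervals of the 34 differences reached from -0.92 to 0.75.

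Soy protein in place of casein gave a smaller set of lower genes. In S against C *Ccnb2* was lower at -0.61 ± 0.18 (adjusted p = 0.0328) and *Kif20a* at -0.60 ± 0.19 (adjusted p = 0.0448), and 0 genes were higher, against 4.27% of all probe sets called lower and 7.25% in either direction. The share of called genes was thus near that of all probe sets. *Ccnb2* alone had all S livers below all C livers, against 4.33% of all probe sets. Unadjusted p-values under 0.05 went to 3 lower and 2 higher genes, against 21.4% of all probe sets in either direction, and those higher were *Tyms* at 0.43 ± 0.16 (adjusted p = 0.102) and *Mcm5* at 0.36 ± 0.17 (adjusted p = 0.216). All 8 genes of licensing and the replication fork had a mean above that of C in S, with a median of 0.19, but none passed. *Ccnb2* lost its call without any of C replicates 2, 3 and 4 and S replicates 1, 3 and 4 (adjusted p 0.0216 to 0.0959). *Kif20a* lost it without any of C replicates 1 to 4 and S replicates 1, 3, 4 and 5 (adjusted p 0.0332 to 0.116). With quantile normalization and with equal median and spread both calls were lost (adjusted p 0.0630 and 0.0683 for *Ccnb2*, 0.0828 and 0.0796 for *Kif20a*), so 0 of 34 passed. *Kif20a* also lost its call with centred arrays (0.0630) and with no filter (0.0684).

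With isoflavone added to soy protein, 3 genes were lower than in C and 0 were higher, against 3.69% of all probe sets called lower and 7.18% in either direction. In SI *Ccnb2* was at -0.69 ± 0.18 (adjusted p = 0.0168), *Kif20a* at -0.62 ± 0.19 (adjusted p = 0.0399) and *Top2a* at -0.76 ± 0.23 (adjusted p = 0.0429). Unadjusted p-values under 0.05 went to 5 lower genes and 0 higher ones, against 13.3% of all probe sets lower. All SI livers lay below all C livers for 3 genes, *Ccnb2*, *Kif20a* and *Cdkn3*, against 4% of all probe sets, and for *Top2a* only SI replicate 1 reached the C range. *Ccnb2* lost its call without C replicate 4 or SI replicate 5 (highest adjusted p 0.0612). *Kif20a* lost it without any of C replicates 1 to 4 and SI replicates 1, 3, 4 and 5 (highest 0.118), and *Top2a* without any of C replicates 1, 2, 4 and 5 and SI replicates 2 to 5 (highest 0.134). The calls of *Kif20a* and *Top2a* were also lost under each of the 3 other scalings of the arrays.

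Isoflavone alone, in CI against C, gave 0 calls among the 34 genes, and 0% of all probe sets passed. At an unadjusted p under 0.05, 6 of 34 genes were lower and 0 higher, against 5.23% of all probe sets lower. The genes of smallest p were *Foxm1* (-0.35 ± 0.10, adjusted p = 0.405), *Ccnb2* (-0.57 ± 0.18, adjusted p = 0.418) and *Kif20a* (-0.60 ± 0.19, adjusted p = 0.418). For *Foxm1* and *Ccnb2* all 5 CI livers lay below all 5 C livers, against 1.32% of all probe sets. The median of the 34 was -0.22, and their 95% confidence intervals reached from -1.21 to 0.64.

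**Figure D5:**
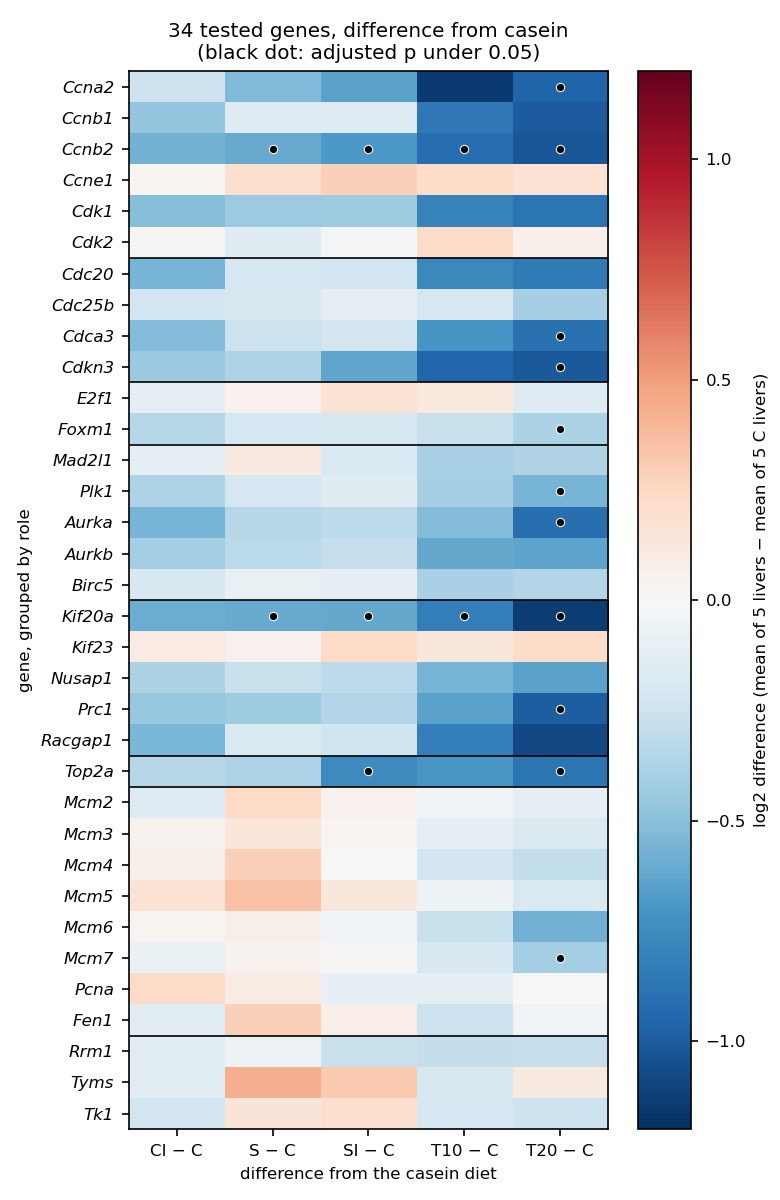
Log2 difference of each diet mean from the C mean for the 34 tested genes, grouped by role, with blue for lower and red for higher, and a black dot for an adjusted p under 0.05. *Ccnb2* and *Kif20a* are marked in S, SI, T10 and T20, all 11 marks of T20 are blue, and CI has none. The 5 columns share the same 5 C livers.

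The diets matched for isoflavone set protein sources against each other. In T20 against SI, *Tk1* was lower at -0.45 ± 0.12 (adjusted p = 0.0293), with all 5 T20 livers below all 5 SI livers (2.01% of all probe sets), and *Mcm7* at -0.42 ± 0.12 (adjusted p = 0.0399), against 1.87% of all probe sets called lower and 3.51% in either direction. At an unadjusted p under 0.05, 11 of 34 were lower and 0 higher, against 9% of all probe sets lower, and the median was -0.32. *Tk1* lost its call without any of SI replicates 2 and 4 and T20 replicates 1, 2 and 5 (highest adjusted p 0.103). *Mcm7* lost it without any of SI replicates 1, 2, 4 and 5 and T20 replicates 1, 2, 4 and 5 (highest 0.119). In T20 against CI 0 of 34 passed, against 2.12% of all probe sets, and 8 were lower at an unadjusted p under 0.05, against 8.37% of all. *Kif20a* was at -0.54 ± 0.19 (adjusted p = 0.124), *Mcm6* at -0.61 ± 0.21 (adjusted p = 0.131) and *Mcm7* at -0.33 ± 0.12 (adjusted p = 0.141).

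In SI against CI *Tk1* was higher at 0.42 ± 0.12 (adjusted p = 0.0212) and 0 genes were lower, against 5.5% of all probe sets called higher and 11.6% in either direction. All 5 SI livers lay above all 5 CI livers, against 4.7% of all probe sets, and 2 genes were higher at an unadjusted p under 0.05, against 27.5% of all in either direction. The call was lost without CI replicate 2, CI replicate 5 or SI replicate 2 (highest adjusted p 0.0761). Centring the arrays on their medians moved the median of all probe sets in this comparison from -0.02 to 0.09, and *Tk1* lay 0.44 above that median both before and after. Added isoflavone within soy protein, SI against S, gave 0 of 34 genes, and 0 at an unadjusted p under 0.05, against 0% and 3.57% of all probe sets. *Top2a* was at -0.39 ± 0.23, *Mad2l1* at -0.30 ± 0.19 and *Mcm4* at -0.29 ± 0.19 (adjusted p = 0.999 for each). The intervals of the 34 reached from -0.87 to 0.69. Whether isoflavone acted differently with casein and with soy protein was tested as the difference of the differences, (SI - S) - (CI - C). It passed for 0 of 34 genes, against 0.0161% of all probe sets. Unadjusted p-values under 0.05 went to 2 higher genes, against 9.21% of all probe sets in either direction. They were *Foxm1* (0.37 ± 0.14, adjusted p = 0.484) and *Kif20a* (0.58 ± 0.26, adjusted p = 0.522), and *Plk1* followed at 0.43 ± 0.21 (adjusted p = 0.544).

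Other genes of the cell cycle were counted from 3 lists of 129 genes, of which 115 were named on the array and 81 were tested. In T20 against C 7 of 25 mitosis genes were lower, against 2.74% of all probe sets, with a list median of -0.46. The 3 of smallest p were *Ncapd2* (a condensin subunit) at -0.58 ± 0.11 (adjusted p = 0.00213), *Spc24* (a kinetochore protein) at -1.09 ± 0.26 (adjusted p = 0.0155) and *Cdca8* (a part of the chromosomal passenger complex) at -0.56 ± 0.15 (adjusted p = 0.0260). Of 32 genes of replication and its checkpoint 1 was lower, with a list median of -0.04. It was *Pole*, the catalytic subunit of DNA polymerase epsilon, at -0.38 ± 0.10, named after its value was seen. At an unadjusted p under 0.05, 7 of these 32 genes were lower and 0 higher, against 11.9% of all probe sets lower. Of the 25 mitosis genes 17 were lower and 0 higher at that level. Of 24 genes of G1/S control 0 passed, with a median of -0.10. An unadjusted p under 0.05 went to 4 of them, 2 lower and 2 higher, against 20.4% of all probe sets in either direction. In T10 against C 0 of the 81 passed and 25 were lower at an unadjusted p under 0.05, against 6.33% of all probe sets. In CI against C 0 passed and 14 were lower at that level, against 5.23% of all.

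In both soy diets 4 of the 81 genes passed, a share below the 7.25% (S) and 7.18% (SI) of all probe sets called in either direction. In S against C 3 were lower and 1 higher, with *Pold3*, a subunit of DNA polymerase delta, higher at 0.53 ± 0.13 (adjusted p = 0.00873). *Rpa3*, a subunit of the single-strand binding protein RPA, was lower at -0.48 ± 0.14 (adjusted p = 0.0276), and *Rbl2*, the pocket protein p130 of the DREAM complex, at -0.35 ± 0.10 (adjusted p = 0.0277). The other gene called lower was *E2f5*, at -0.39 ± 0.12, named after its value was seen. In SI against C *E2f5*, *Rpa3* and *Rbl2* were lower, at -0.48 ± 0.12, -0.49 ± 0.14 and -0.36 ± 0.10, and the 1 gene called higher was *Ccnd1* (cyclin D1, which drives G1), at 0.62 ± 0.18 (adjusted p = 0.0352), named after its value was seen. In T20 against SI 4 were lower and 2 higher, against 3.51% of all probe sets in either direction, and the lowest adjusted p was that of *Ccnd1*, at -0.96 ± 0.18 (adjusted p = 0.00411), with all T20 livers below all SI livers. The others called lower were *Dnmt1*, *Ncapd2* and *Cdkn2c*, and those higher were *Rbl2* and *Rpa3*, the last 3 of these 5 named after their values were seen. In SI against CI 6 were lower and 5 higher, a share near the 11.6% of all probe sets called, with *Smc4* (condensin) at -1.03 ± 0.26, *Cenpm* (a centromere protein) at 0.44 ± 0.11 and *Pold2* (DNA polymerase delta) at 0.41 ± 0.10. In T20 against CI 1 was lower, *Smc4* at -1.09 ± 0.26, against 2.12% of all probe sets called. In SI against S and in T20 against T10 0 of the 81 passed.

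Markers of 7 cell types that a liver sample can hold were summed in each liver. Their summed intensities in C and T20 overlapped for each of the 7 types. For Kupffer cell and macrophage markers, though, the T20 median of 15929 lay above the highest C liver. In T10 the sum of these markers ran from 14561 to 20719. For 8 hepatocyte markers the sum was 347214 to 448690 in C and 359096 to 428361 in T20, and for 8 Kupffer cell and macrophage markers 13424 to 14941 and 14472 to 17944. For 7 endothelial markers it was 11362 to 13095 in C and 12418 to 14509 in T20, for 7 stellate cell markers 14549 to 17246 and 14786 to 17019, and for 3 bile duct markers 812.8 to 945.1 and 825.7 to 955.5. For 8 lymphocyte markers it was 1363 to 1788 in C and 1448 to 1820 in T20, and for 5 markers of blood and erythroid precursors 37972 to 58825 and 37483 to 56904. No marker had a 0 on any array, and *Cd3d*, *Cd3e*, *Cd8a*, *Ms4a1* and *Krt7* lay below the filter. In T20 against C 1 marker was called higher in each of 3 types, against 1.76% of all probe sets. They were *Cd14* of macrophages at 0.73 ± 0.21, *Lyve1* of endothelium at 0.35 ± 0.10 and *Rgs5* of stellate cells at 0.76 ± 0.13. The medians of these 3 lists were 0.02, 0.05 and -0.13. Of 7 stellate cell markers 4 had a mean below that of C and 3 above. At an unadjusted p under 0.05, 3 of them were lower and 1 higher. No marker of any type was called lower, against 2.74% of all probe sets. In T10 *Cd14* was at 1.21 ± 0.21 from C, the 1 macrophage marker called higher there, against 0.129% of all probe sets. The part of these cells in the cell cycle result was not tested.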

How the data were processed

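Liver RNA of 30 rats, 5 on each of 6 diets, was measured on single-colour Affymetrix arrays of 31099 probe sets. The deposited values are intensities on a linear scale, normalized by the authors with SuperNORM per the labels. The sources used here do not give the level they are scaled to. Intensities below 16 were set to 16 and log2 was taken of the deposited intensity, with no further scaling. 57 control probe sets were left out, and 18625 probe sets above the 40th percentile of mean log2, of 10699 named genes, were tested. limma 3.58.1 in R 4.3.3 fitted all 6 diets together, with 24 residual degrees of freedom and Benjamini-Hochberg adjustment over all tested probe sets at 0.05. The 11 contrasts were tested in that fit, which was tested on simulated data. The number of arrays limits the precision. Probe sets were named where GEO's platform annotation, which can be old, gave 1 symbol (20832), and not where it gave several (436) or none (9831). The promoters are RefSeq's (GRCr8). The 49 genes, the other lists and the tests were chosen with earlier results of these data known. All values per array are given for the 12 tested genes of smallest F-test p and for *Pcna*, *Cdk1*, *Ccnb1* and *Mcm2*. For each contrast, the genes called (the 10 of smallest p where there were more) or else the 3 of smallest p are named, and other members are named by role. Alternatives were other scalings, filters and floors, array weights, the mean of a gene's probe sets, a replicate block and leaving out livers.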

Additional observations from a re-analysis of the deposited data

Results flagged for a closer look

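Among 210 sets of 5 livers, 6 held a liver far from the other 4 by Dixon's criterion, and chance gives about 1 in 20. In S replicate 3, *Ccnb1* measured 9.07, beside 9.75 to 9.84 in the other S livers, and *Nusap1* 8.71, beside 9.33 to 9.44. *Ccne1* measured 7.60 in C replicate 5, beside 8.02 to 8.12. *Aurkb* measured 7.67 in CI replicate 5, beside 8.47 to 8.61. *Top2a* measured 7.64 in T10 replicate 4, beside 8.54 to 8.69. *Mcm7* was the 1 case of a high liver, with 9.76 in T20 replicate 3, beside 9.43 to 9.52.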

How the results depend on the processing

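Directions were checked for 36 pairs of a gene and a contrast, those called or, where none was, the 3 of smallest p. No alternative turned one, with only the lowest and highest adjusted p read among runs without 1 liver. Other genes were not checked. The median of the 34 genes moved from -0.08 to 0.003 in T20 against T10 without replicates 5. In SI against S it moved from -0.02 to 0.002 with centred arrays. Floors of 1 or 64 and the variance trend changed no count of called genes. In T20 against C, 11 genes were called, and 16 with a replicate block, 10 with centred arrays and 9 after quantile normalization. With equal median and spread 11 were called, but *Mcm7* was not among them. The count was 9 of 44 genes with no filter, 5 with array weights and 3 fitted on C and T20 alone. It was 7 without C replicate 3 and CI replicate 3, 6 without T20 replicate 5 and T10 replicate 4, and 3 without replicates 5 of all diets. Leaving out 1 liver gave 4 to 15. In T10 against C (2 called) the count was 4 with array weights and 3 with the replicate block. It was 1 after each other scaling, with no filter, without C replicate 3 and CI replicate 3, without T20 replicate 5 and T10 replicate 4 and without replicates 5, 0 without T10 replicates 3 to 5, and 0 to 3 with 1 liver left out.

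In S against C (2 called) the count was 1 with centred arrays, 0 with equal spread, with quantile normalization and without C replicate 3 and CI replicate 3, and 0 to 2 with 1 liver left out. In SI against C (3 called) it was 1 after each scaling and with no filter, 0 without replicates 5, and 0 to 2 with 1 liver left out. In SI against CI (1 called) it was 2 after each scaling, with array weights and without C replicate 3 and CI replicate 3, 0 without replicates 5, and 0 to 2 with 1 liver left out. In T20 against SI (2 called) it was 4 with the replicate block and 1 with equal spread, array weights or no filter. It was 0 fitted on both groups alone, without T20 replicate 5 and T10 replicate 4 and without replicates 5, and 0 to 5 with 1 liver left out. The F test (8 called) gave 14 with the replicate block, 4 without T10 replicates 3 to 5, 4 without T20 replicate 5 and T10 replicate 4, 3 without replicates 5, and 6 to 13 with 1 liver left out. CI against C, SI against S, T20 against T10 and the difference of differences stayed at 0 in every alternative, and T20 against CI did except for 1 gene (*Mcm6*) with the block.

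The labels do not say that replicate numbers pair the livers, and the check of pairing was mixed. Deviations from the diet means correlated at a median of 0.0459 over 75 same-numbered pairs (-0.277 to 0.350), with 22 over 0.1, and at a median of -0.013 over 300 pairs of different number, with 50 over 0.1. Of the 30 livers, 9 correlated best with their own number, and replicate 5 had the lowest average of the division genes in C, CI, SI and T20. Of all probe sets in T20 against C, 511 were lower and 328 higher as deposited, 476 and 382 after quantile normalization, 523 and 183 with centred arrays, and 398 and 830 with equal spread. Leaving out replicates 5 of all diets, and T20 replicate 5 with T10 replicate 4, was chosen after seeing the data. Genes near background are limited by signal. The cause of these changes was not tested.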
